A study of Mus musculus with 18 samples.

Results

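Id1, Id2, Id3 and Id4 encode the 4 inhibitor of DNA binding (ID) proteins, helix-loop-helix proteins without the basic region through which related factors bind DNA. The genes were chosen by symbol for their transient response at 5 h of tunicamycin and their response to LIP in these same arrays. Their values are therefore given as a description, with no test. They are 4 of 19938 genes with a probe set that carries a single gene symbol, and each of the 4 has 1 such probe set. The cells were B16 F10.9-4, from the mouse B16 melanoma, grown in DMEM with serum, and their RNA was read on 18 one-colour Affymetrix arrays. The 6 groups were doxycycline alone (LIP on, 0 h of tunicamycin), vehicle, doxycycline followed by tunicamycin for 5 h, tunicamycin for 5 h, doxycycline followed by tunicamycin for 12 h, and tunicamycin for 12 h. Every one of 3 independent experiments gave 1 array to each group, so that n = 3. Doxycycline induces LIP, a short form of C/EBPβ that binds DNA but activates poorly, and tunicamycin blocks N-linked glycosylation and so loads the endoplasmic reticulum (ER) with unfolded protein. Vehicle arrays at 5 or 12 h and doxycycline-treated cells lacking the LIP construct were not analysed here. Time in culture therefore cannot be told apart from tunicamycin, nor can doxycycline itself from LIP. The labels do not say whether the line is a single clone, and they give no length for the doxycycline pretreatment.

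ID proteins pair with E proteins, the broadly expressed basic helix-loop-helix (bHLH) factors, and keep them from forming DNA-binding pairs with each other or with tissue-restricted bHLH factors. High ID levels are known to accompany proliferating, undifferentiated cells, and in human melanocytes ID1 is known to delay senescence. Id1, Id2 and Id3 are textbook targets of bone morphogenetic protein (BMP) signalling: ligand-bound receptor kinases phosphorylate SMAD1, SMAD5 and SMAD9, which enter the nucleus with SMAD4 and act on Id promoters and on genes of the pathway's own inhibitors.

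On the GRCm38.p6 assembly Id1 lies on chromosome 2 (152736251 to 152737410), Id2 on chromosome 12 (25093799 to 25096092), Id3 on chromosome 4 (136143822 to 136145392) and Id4 on chromosome 13 (48261116 to 48266028), and all 4 are annotated as protein coding. The 250 bases before the start of Id2, Id3 and Id4 are shown to set the upstream sequences of Id2 and Id3, both higher at 5 h, beside that of Id4, which was nearly level. A window for Id1 was not used here. They are RefSeq sequences of GRCm38.p6, at chr12:25096093-25096342 (minus strand) for Id2, chr4:136143572-136143821 (plus strand) for Id3 and chr13:48260866-48261115 (plus strand) for Id4, each written 5′ to 3′ along its gene. Capitals mark matches on either strand to 6 motifs: GGCGCC (a GC-rich SMAD element), CAGCTG and CACGTG (E-boxes), TGACGTCA (the cAMP response element), CCAAT (which reads ATTGG on the other strand) and TTGCGCAA (a C/EBP palindrome).
Id2: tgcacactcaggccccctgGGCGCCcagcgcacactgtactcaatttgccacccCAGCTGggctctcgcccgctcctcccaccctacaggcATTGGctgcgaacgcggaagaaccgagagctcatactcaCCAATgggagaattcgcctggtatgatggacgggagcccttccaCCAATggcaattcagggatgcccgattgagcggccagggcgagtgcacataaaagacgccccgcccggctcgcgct
Id3: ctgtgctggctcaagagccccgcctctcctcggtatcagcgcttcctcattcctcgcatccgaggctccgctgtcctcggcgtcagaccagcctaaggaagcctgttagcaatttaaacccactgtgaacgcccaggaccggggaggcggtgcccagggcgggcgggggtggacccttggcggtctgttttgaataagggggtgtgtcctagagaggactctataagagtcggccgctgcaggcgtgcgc
Id4: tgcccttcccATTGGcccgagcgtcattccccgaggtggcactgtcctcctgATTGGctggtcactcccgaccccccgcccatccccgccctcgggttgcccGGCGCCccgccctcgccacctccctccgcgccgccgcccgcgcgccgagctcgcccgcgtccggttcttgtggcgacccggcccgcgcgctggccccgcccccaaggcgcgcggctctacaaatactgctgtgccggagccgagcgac
The Id2 window held 1 GGCGCC, 1 CAGCTG and 3 CCAAT, and the Id4 window held 1 GGCGCC and 2 CCAAT, with no overlap between matches. None of the 6 motifs was found in the Id3 window, which is therefore all in lower case. Among 32851 mouse windows of the same length, 9.59% held GGCGCC, 13% CAGCTG, 6.02% CACGTG, 1.55% TGACGTCA, 33.9% CCAAT and 0.164% TTGCGCAA. A match describes these letters and not a bound site.

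RMA (robust multi-array average) gave the deposited log2 intensities, so 1 unit is a doubling of intensity, and levels of different probe sets are not set against each other. The number of arrays limits the precision. Arrays of the same group correlated at 0.993 to 0.998 (Pearson r), and array medians between 6.96 and 7.04. The tunicamycin arrays of experiment 2 at 5 h and experiment 3 at 12 h had the largest spread around their group means (SD 0.113 and 0.0895). The second was close to the next array, tunicamycin 5 h of experiment 1 (0.0880). Cebpb, whose probe set reads LIP and the longer isoforms together, rose under doxycycline by 1.84 ± 0.071 (SE, limma adjusted p = 2.02e-11) at 0 h, 1.81 (adjusted p = 2.83e-11) at 5 h and 1.22 (adjusted p = 8.27e-10) at 12 h. Ddit3, which encodes the stress factor CHOP, rose by 1.17 at 5 h (adjusted p = 5.9e-08) and 2.89 at 12 h (adjusted p = 1.34e-14) of tunicamycin without doxycycline. Hspa5, which encodes the ER chaperone BiP, differed by -0.01 at 5 h (adjusted p = 0.93) and rose by 0.69 at 12 h (adjusted p = 3.81e-09). All 8 melanocyte markers lay above 6.07, the 95th percentile of 1196 olfactory and vomeronasal receptor genes taken as silent, at levels of 6.89 to 13.64. Of the markers of other cell types, 2 of 4 leukocyte, 1 of 3 endothelial, 1 of 3 keratinocyte and 3 of 4 fibroblast genes did so, and their levels lay between 5.13 and 7.90. Id1, Id2, Id3 and Id4 lay above 6.07 on all 18 arrays. The mean of Id4, 6.94, was however within the range of the markers of other cell types. A level reading of Id4 therefore cannot be told apart from a probe set with little signal.

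After 5 h of tunicamycin without doxycycline, Id1 and Id3 stood more than 3-fold above vehicle and Id2 about 1.5-fold above it, while Id4 was nearly level. Id1 read 10.26, 10.03 and 10.01 in tunicamycin 5 h cells of experiments 1, 2 and 3, against 8.43, 8.44 and 8.51 in vehicle cells. Every tunicamycin array lay above every vehicle array, and the difference was 1.64 ± 0.076 (SE, n = 3 each), or 3.11-fold. Id3 read 10.21, 10.18 and 10.26 in tunicamycin 5 h cells and 8.47, 8.33 and 8.58 in vehicle cells. Its groups were again apart, by 1.75 ± 0.075 (3.37-fold). Id2, the member known for binding the retinoblastoma protein, read 13.10, 13.05 and 13.06 in tunicamycin 5 h cells and 12.50, 12.41 and 12.48 in vehicle cells. The Id2 difference was 0.60 ± 0.058 (1.52-fold), smaller than that of Id1 and Id3 in each experiment, and its groups did not overlap either. Id4, best known from the nervous system, averaged 6.97 in tunicamycin 5 h cells and 6.87 in vehicle cells, a difference of 0.10 ± 0.065 with overlapping arrays. Ordered by size of increase among the 19938 genes, Id3 came 1, Id1 2, Id2 53 and Id4 4498. In this comparison 4.08% of all genes were called higher and 4.94% lower at an adjusted p under 0.05, and in 27.9% the arrays of both groups did not overlap. These shares are background only, since the members were selected on this contrast. In whole cultures, more RNA per cell and more cells of a kind that expresses a gene cannot be told apart.

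The doxycycline arm shares no arrays with the arm above, but it comes from the same 3 experiments. Its groups were also among the 6 used to choose the genes, so it is no independent support. In this arm Id1 and Id3 had larger differences than Id2, with Id1 ahead of Id3. Id1 read 10.31, 10.19 and 10.09 after doxycycline and 5 h of tunicamycin, against 8.63, 8.48 and 8.73 after doxycycline alone. The difference was 1.59 ± 0.076 (3.00-fold), with 1.68, 1.71 and 1.37 in experiments 1, 2 and 3. Id3 read 10.40, 10.37 and 10.29 after doxycycline and 5 h of tunicamycin and 8.84, 8.70 and 9.03 after doxycycline alone, a difference of 1.49 ± 0.075 (2.82-fold). Id2 read 12.95, 12.88 and 12.90 after doxycycline and 5 h of tunicamycin and 12.16, 11.99 and 12.10 after doxycycline alone. Its difference was 0.83 ± 0.058 (1.77-fold), larger than without doxycycline, while those of Id1 and Id3 were smaller than without it. In all 3 genes every array with tunicamycin lay above every array without it. In this comparison 6.54% of genes were called higher and 5.56% lower, and 28% did not overlap. Among 19938 genes Id1 came 1, Id3 3 and Id2 47 by size of increase.

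**Figure D1:**
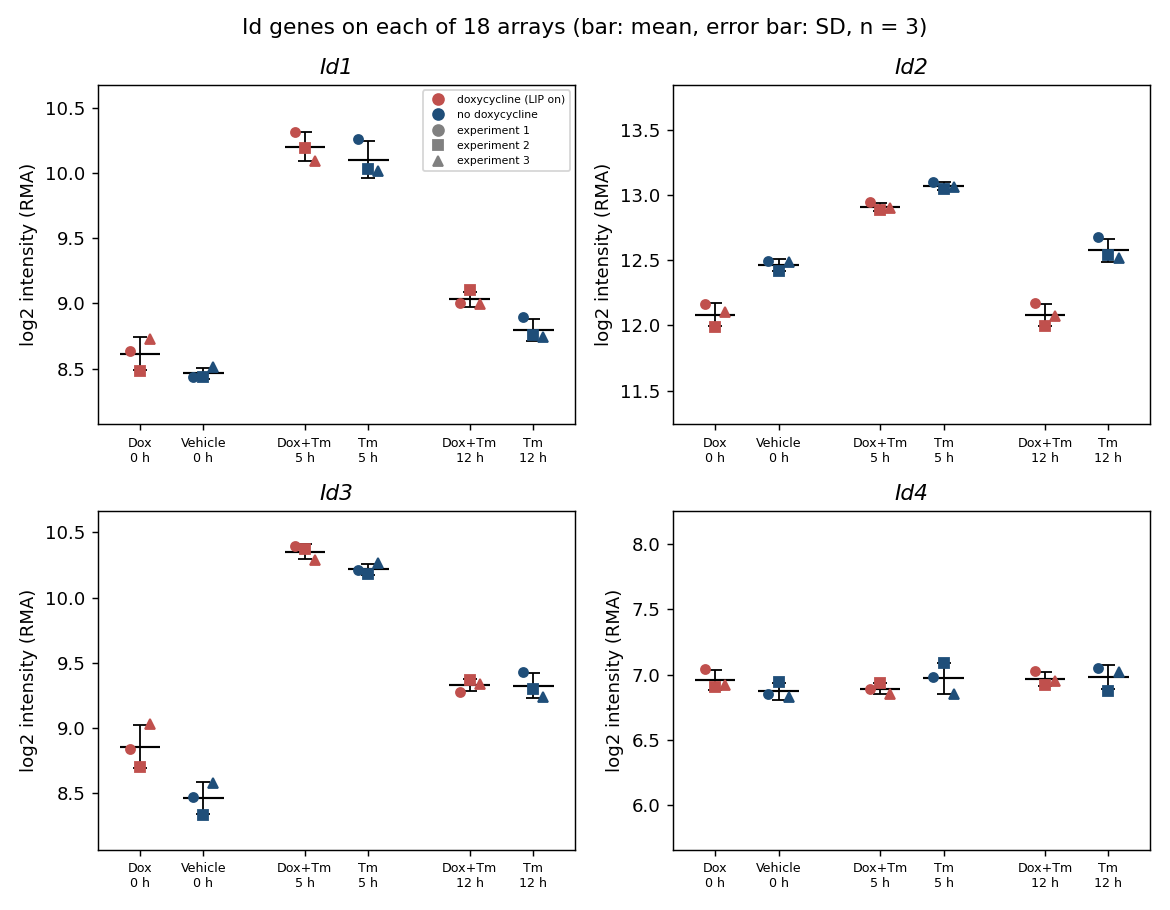
Log2 RMA intensity of Id1, Id2, Id3 and Id4 on each of 18 arrays, by hours of tunicamycin, with doxycycline in red to the left of no doxycycline in blue; symbols mark the experiment, bars the mean and error bars the SD (n = 3). Id1, Id2 and Id3 stand at their highest at 5 h with and without doxycycline, and Id4 stays between 6.82 and 7.09.

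By 12 h most of the difference was gone for Id1 and Id2, and more of it was left for Id3. Id1 read 8.89, 8.76 and 8.74 in tunicamycin 12 h cells, which is 1.30 ± 0.076 below the 5 h arrays and 0.34 above vehicle. Id2 read 12.67, 12.54 and 12.51, which is 0.49 below 5 h and 0.11 above vehicle. Id3 read 9.43, 9.30 and 9.24, which is 0.89 below 5 h and 0.86 ± 0.075 above vehicle (1.81-fold). All 12 h arrays of these 3 genes lay below all 5 h arrays and above all vehicle arrays, though for Id2 the lowest 12 h array (12.51) barely cleared the highest vehicle array (12.50). Of the log2 increase at 5 h, 20.5% was left at 12 h for Id1 (15.2 to 25.2% over experiments), 18.4% for Id2 (5.26 to 29.3%) and 49.0% for Id3 (39.1 to 54.8%). These shares use the same vehicle arrays at both times. Among all genes, 11.4% were called higher and 13.6% lower at 12 h than at 5 h, with 33.9% not overlapping. Against vehicle, 11.9% were called higher and 15.8% lower at 12 h, with 39.1% not overlapping.

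With doxycycline the 12 h arrays read 9.01, 9.10 and 8.99 for Id1, 12.17, 12.00 and 12.07 for Id2, and 9.28, 9.37 and 9.34 for Id3. These lay below the 5 h arrays by 1.17 for Id1, 0.83 for Id2 and 1.03 for Id3, and no arrays overlapped between these times. Against doxycycline alone, Id1 was higher by 0.42 and Id3 by 0.47 (1.38-fold), while Id2 differed by -0.003 ± 0.058 and its arrays overlapped. The share of the 5 h increase left at 12 h was 26.4% for Id1 (19.5 to 36.1%), -0.374% for Id2 (-3.90 to 1.48%) and 31.4% for Id3 (24.6 to 39.8%). Among all genes 10.9% were called higher and 15.4% lower at 12 h than at 5 h under doxycycline, with 35% not overlapping. Against doxycycline alone 13.4% were called higher and 16.6% lower at 12 h, with 41.1% not overlapping.

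LIP induction went with lower Id2 at each time, higher Id3 before tunicamycin, and small differences in Id1. At 0 h Id2 averaged 12.08 ± 0.0892 with doxycycline and 12.46 ± 0.0442 in vehicle (SD, n = 3 each), a difference of -0.38 ± 0.058 (SE) with -0.34, -0.43 and -0.38 in the experiments. At 5 h the difference was -0.16, and at 12 h it was -0.50, with -0.50, -0.54 and -0.44 in the experiments. The Id2 arrays with and without doxycycline did not overlap at any of the 3 times. Id3 averaged 8.86 ± 0.163 with doxycycline and 8.46 ± 0.124 in vehicle at 0 h, a difference of 0.40 (1.32-fold) without overlap. Its difference was 0.14 at 5 h, without overlap, and 0.005 at 12 h, where arrays overlapped. Id1 differed by 0.15 at 0 h and 0.10 at 5 h, both with overlap, and by 0.24 at 12 h (1.18-fold), without overlap. Id4 arrays overlapped in all 9 pairwise comparisons, with differences between -0.08 and 0.11. The arrays of the groups compared did not overlap for 34.2% of all genes at 0 h, 24.2% at 5 h and 26.2% at 12 h. At those times 4.89, 6.76 and 6.95% of all genes were called higher under doxycycline, and 5.82, 5.21 and 7.77% lower.

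The difference of the tunicamycin effect with and without doxycycline was 0.22 ± 0.082 for Id2 at 5 h and -0.11 ± 0.082 at 12 h. For Id3 it was -0.26 ± 0.107 at 5 h and -0.39 ± 0.107 at 12 h, and for Id1 it was -0.05 ± 0.11 and 0.08 ± 0.11, the second turning to -0.025 without experiment 2. In all 3 experiments the Id2 value was above 0 at 5 h and below 0 at 12 h, and both Id3 values were below 0. Both Id1 values had mixed signs. The Id4 difference was -0.17 ± 0.091 at 5 h, below 0 in all 3 experiments, and -0.10 ± 0.091 at 12 h, with mixed signs. These signs are given as a description only. Such interactions were called by limma for few genes: 0.0301% higher and 0% lower at 5 h (6 and 0 genes, with 817 and 834 at an unadjusted p under 0.05), and 0.993% higher and 0.848% lower at 12 h.

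**Figure D2:**
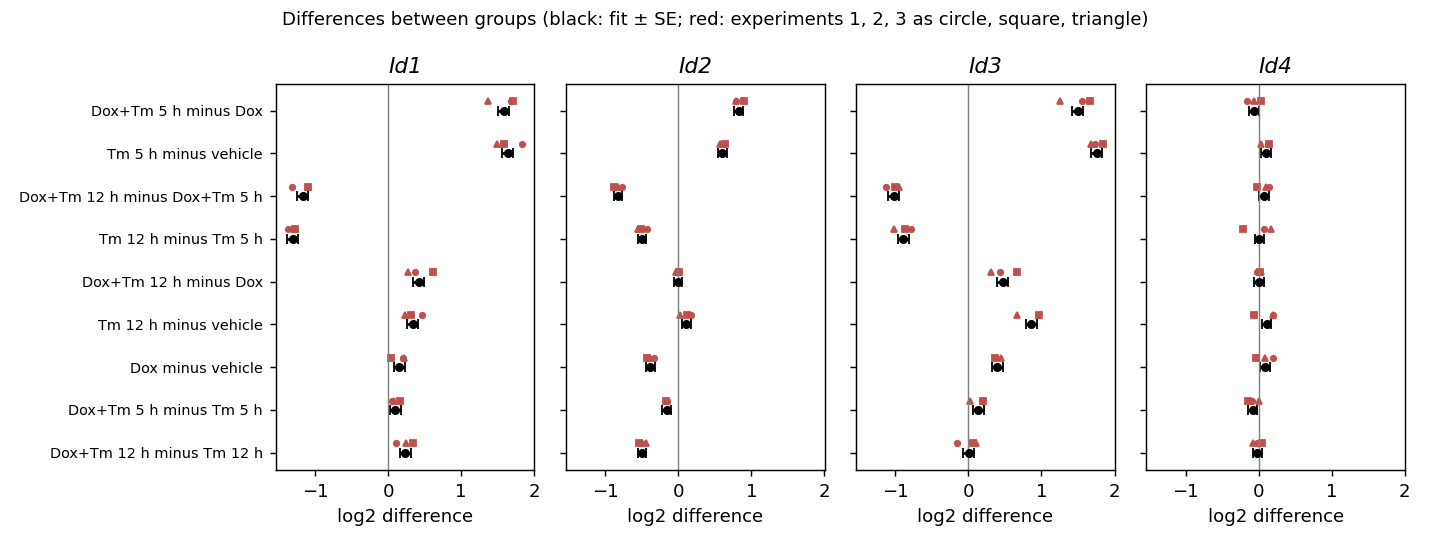
Log2 differences between groups for Id1, Id2, Id3 and Id4, named as first group minus second (Dox, doxycycline; Tm, tunicamycin); black points are the fit with its SE and red symbols the experiments. Id1 and Id3 lie near 1.5 or above at 5 h in both arms, Id2 lies below 0 in the 3 doxycycline differences, and Id4 lies near 0 throughout.

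Id1 and Id3 had the same order of group means over the 6 groups, and Id2 had another. For Id1 the order of group means was doxycycline with tunicamycin 5 h (10.20), tunicamycin 5 h (10.10), doxycycline with tunicamycin 12 h (9.03), tunicamycin 12 h (8.80), doxycycline (8.61) and vehicle (8.46). Its 2 highest and its 2 lowest groups overlapped. For Id2 the order was tunicamycin 5 h (13.07), doxycycline with tunicamycin 5 h (12.91), tunicamycin 12 h (12.58), vehicle (12.46), and then doxycycline with tunicamycin 12 h and doxycycline alone, both at 12.08 and overlapping. For Id3 the order was doxycycline with tunicamycin 5 h (10.35), tunicamycin 5 h (10.22), doxycycline with tunicamycin 12 h (9.33), tunicamycin 12 h (9.32), doxycycline (8.86) and vehicle (8.46), and the 2 groups at 12 h overlapped.

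Over the 18 arrays, which share the 6 group means, Pearson r was 0.967 between Id1 and Id3, 0.784 between Id1 and Id2, and 0.739 between Id2 and Id3 (Spearman rho 0.959, 0.635 and 0.662). For the deviations of arrays from their group means r was 0.656, 0.481 and 0.463 for the same pairs. These deviations still hold any offset of an experiment, and Id2 was highest in experiment 1 in every group. Shared variation of the genes therefore cannot be told apart from such an offset. Over the 18 arrays Id4 had r between -0.03 and 0.08 with the others. For the deviations its r was 0.129 with Id1, 0.335 with Id2 and -0.230 with Id3. Leaving out the Id genes themselves, the genes whose pattern was most like a member's were found by Pearson r over the 18 arrays among 12420 genes. For Id1 they were Camk2n1, an inhibitor of calcium/calmodulin kinase II (0.970), Smad9, a BMP receptor-activated SMAD (0.966), Tmco4 (0.966), Ier5l (0.957) and Gclm, a subunit of the glutathione synthesis enzyme (0.953). For Id3 they were Slc30a1, a zinc exporter (0.951), Tmco4 (0.939), Camk2n1 (0.939), Arfgef2 (0.932) and Smad7, an inhibitory SMAD (0.923). For Id2 they were Urb1 (0.966), Pmepa1, an inhibitor of transforming growth factor β signalling (0.960), Nop2 (0.950), Mt1, a metallothionein (0.945), and Utp15 (0.943), of which Urb1, Nop2 and Utp15 act in ribosome assembly. For Id4 r was lower: Drd1 (0.801), Zfp366 (0.791), Rflna (0.786), Crybb3 (0.784) and Rdh8 (0.781).

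The ID pathway was followed through 12 lists with 126 measured genes, some of them on more than 1 list, and these genes were tested with limma over all 19938 genes. At 5 h without doxycycline 13 of the 126 rose and 6 fell, where 4.08% of all genes rose and 4.94% fell. Among the SMADs and their intracellular regulators, 4 of 11 rose and 0 fell (1 lower at an unadjusted p under 0.05), with a list median of 0.15 against 0.02 for all genes. The inhibitory SMADs Smad6 (1.13 ± 0.059, adjusted p = 7.84e-10) and Smad7 (0.87, adjusted p = 5.9e-08) rose. Smad9 (0.94, adjusted p = 1.52e-08) and Skil, a SMAD corepressor (0.55, adjusted p = 0.000436), rose too. The other signal carriers did not pass, with Smad1 at 0.006 (adjusted p = 0.97), Smad5 at 0.04 (adjusted p = 0.656) and Smad4 at 0.007 (adjusted p = 0.949). Of 13 BMP-SMAD target genes other than the Id genes, 6 rose and 0 fell (0 lower at an unadjusted p under 0.05), with a median of 0.19. Besides Smad6, Smad7 and Smad9 these were the bHLH factor Atoh8 (1.00, adjusted p = 1.24e-07), Nog, the secreted antagonist noggin (0.43, adjusted p = 0.00619), and the haematopoietic factor Gata2 (0.40, adjusted p = 0.00013), the last named after its values were seen. Skil lost its call without experiment 3 (adjusted p = 0.0505), and Nog without experiment 1 (0.0525) or experiment 3 (0.0725).

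Smad6 read 8.96, 8.83 and 8.92 in tunicamycin 5 h cells and 7.75, 7.82 and 7.73 in vehicle cells, and at 12 h it read 7.92, 7.93 and 8.00. Smad9 read 8.84, 8.61 and 8.72 in tunicamycin 5 h cells and 7.75, 7.82 and 7.78 in vehicle cells, and at 12 h it read 7.92, 7.90 and 7.74. Both were thus high at 5 h and near vehicle at 12 h. Smad7 read 9.04, 9.12 and 9.14 in tunicamycin 5 h cells and 8.14, 8.30 and 8.25 in vehicle cells, and at 12 h it stayed above vehicle at 8.82, 8.75 and 8.79. Atoh8 read 10.59, 10.62 and 10.65 in tunicamycin 5 h cells and 9.59, 9.61 and 9.68 in vehicle cells, and at 12 h it read 9.88, 10.01 and 9.75.

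**Figure D3:**
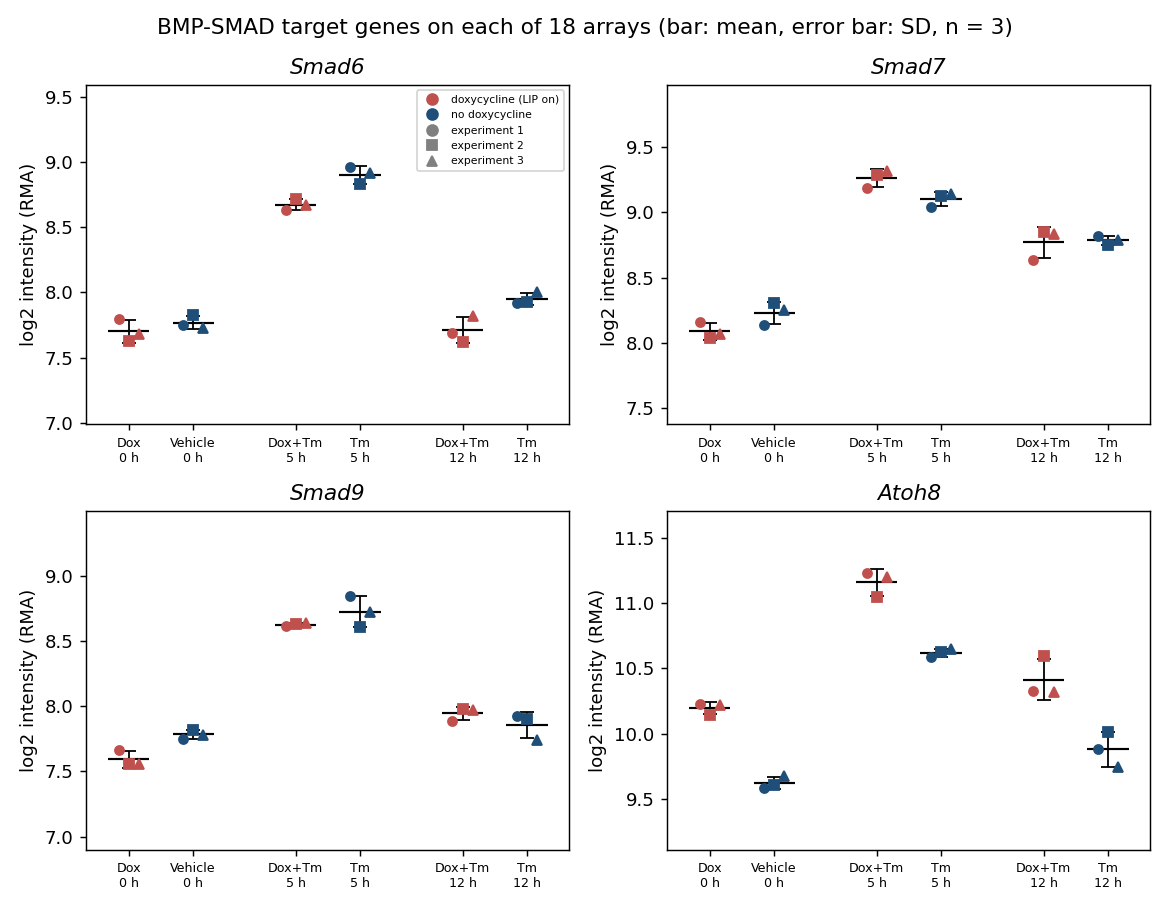
Log2 RMA intensity of Smad6, Smad7, Smad9 and Atoh8 on each of 18 arrays, by hours of tunicamycin, with doxycycline in red to the left of no doxycycline in blue; symbols mark the experiment, bars the mean and error bars the SD (n = 3). In both arms all 4 genes are highest at 5 h, and Atoh8 is higher with doxycycline at each time.

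In the doxycycline arm at 5 h, 17 of the 126 pathway genes rose and 9 fell, where 6.54% of all genes rose and 5.56% fell. Of the SMAD list 7 of 11 rose and 0 fell (0 at an unadjusted p under 0.05; median 0.23 against -0.01 for all genes), and of the BMP-SMAD targets 7 of 13 rose and 0 fell (0 at an unadjusted p under 0.05; median 0.23). Smad7 rose by 1.18 (adjusted p = 8.43e-10), Smad9 by 1.04 (adjusted p = 2.82e-09), Skil by 1.02 (adjusted p = 2.42e-07), Smad6 by 0.97 (adjusted p = 4.35e-09) and Atoh8 by 0.96 (adjusted p = 1.05e-07). The 6 target genes that rose without doxycycline all rose here, which is 6 of 6 in that arm and 6 of 7 in this one, and the other was Bambi, a decoy receptor (0.23, adjusted p = 0.0115). Of the SMAD list, 4 genes rose in both arms. The call of Nog here (0.30, adjusted p = 0.0409) was lost without any 1 of the 3 experiments (adjusted p up to 0.198) and with the experiment as a block (0.0538).

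Between 5 and 12 h, 13 of the 126 genes rose and 26 fell with doxycycline, and 10 rose and 23 fell without it. Of all genes, 10.9% rose and 15.4% fell with doxycycline, and 11.4% rose and 13.6% fell without it. Of the BMP-SMAD targets 6 fell and 0 rose in each arm (0 higher at an unadjusted p under 0.05 with doxycycline and 1 without it). The list median was -0.20 with doxycycline and -0.18 without it, against -0.02 and -0.03 for all genes. They were Smad6, Smad9, Atoh8, Bambi, Smad7 and Gata2 in both arms. Without doxycycline Smad6 fell by 0.95 (adjusted p = 5.4e-10), Smad9 by 0.87 (adjusted p = 2.65e-09), Atoh8 by 0.74 (adjusted p = 3.72e-07), Bambi by 0.61 (adjusted p = 1.24e-07) and Smad7 by 0.32 (adjusted p = 0.000703). Of the SMAD list 8 of 11 fell and 1 rose with doxycycline, and 6 fell and 0 rose without it (1 higher at an unadjusted p under 0.05). At 12 h against vehicle, 3 of the SMAD list and 4 of the targets were higher, with 2 and 1 lower. Of all genes, 11.9% were higher there and 15.8% lower. Smad7 was still higher by 0.55 (adjusted p = 1.09e-06), and Bambi was lower by 0.53 on the log2 scale (adjusted p = 7.29e-07). Smad6 at 0.18 (adjusted p = 0.026) lost its call in 5 of 12 alternatives: without experiment 1 (0.114), without experiment 3 (0.317), without the 2 arrays of large spread (0.0887), with equal array medians (0.0888) and with repeated quantile normalization (0.0832). Atoh8 at 0.26 (adjusted p = 0.0137) lost its call without experiment 1 (0.158). Against doxycycline alone at 12 h, Smad7 (0.68, adjusted p = 6.15e-08), Skil (0.48, adjusted p = 0.000172) and Smad9 (0.35, adjusted p = 0.000142) were higher and Bambi was lower (-0.48, adjusted p = 1.75e-06). There 4 of the SMAD list and 3 of the targets were higher, with 1 and 2 lower, where 13.4% of all genes were higher and 16.6% lower.

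**Figure D4:**
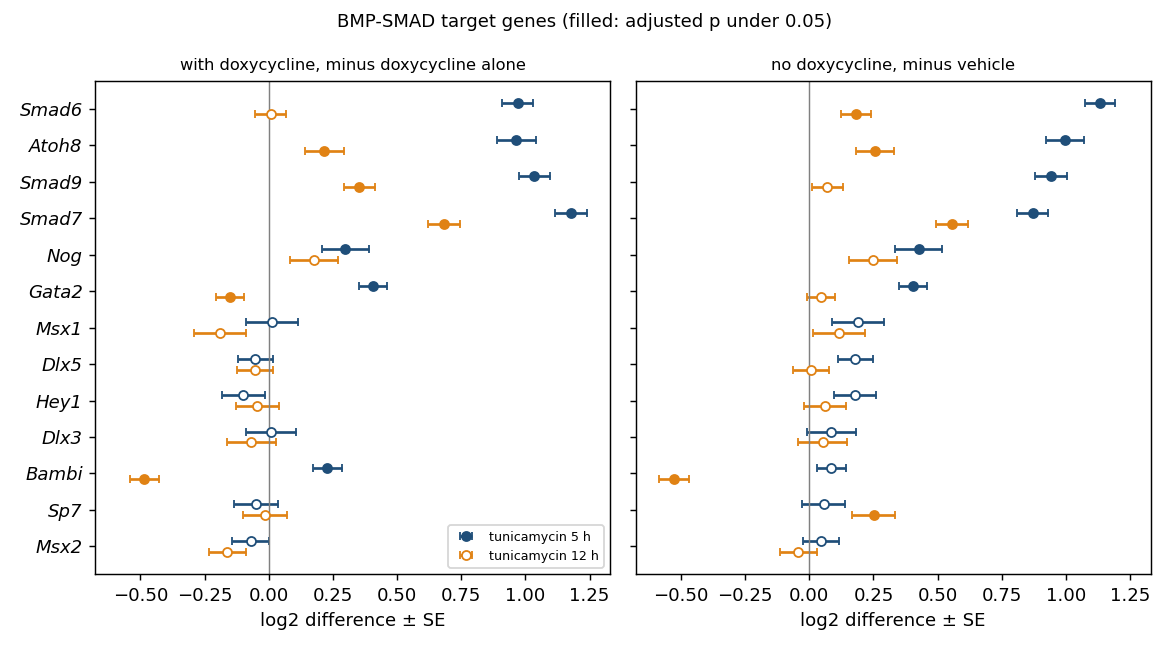
Log2 differences with SE of 13 BMP-SMAD target genes at 5 h (blue) and 12 h (orange) of tunicamycin, with doxycycline against doxycycline alone on the left and without it against vehicle on the right; filled points passed limma's adjusted p of 0.05. At 5 h 7 genes on the left and 6 on the right passed, and all of them were higher.

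Upstream of the SMADs, and in the lists after them, tunicamycin counts are read against the shares of all genes called higher and lower. At 5 h these were 4.08% higher and 4.94% lower without doxycycline, and 6.54% and 5.56% with it. At 12 h against 0 h they were 11.9% and 15.8% without doxycycline, and 13.4% and 16.6% with it. Of 14 BMP ligands, 6 of them above the level of silent receptor genes, 1 rose at 5 h without doxycycline (Bmp4, 0.22, adjusted p = 0.047), and its call was lost in 8 of 11 alternatives, among them leaving out any 1 of the 3 experiments (adjusted p up to 0.312). None of the 14 passed limma's threshold in the doxycycline arm at 5 h (0 at an unadjusted p under 0.05) or in either arm at 12 h against 0 h (0 with doxycycline and 1 higher without it at an unadjusted p under 0.05). Of 11 BMP receptors and co-receptors, 0 rose and 1 fell at 5 h without doxycycline (0 and 2 at an unadjusted p under 0.05), namely the co-receptor Rgma (-0.44, adjusted p = 0.00111). With doxycycline 0 rose (2 at an unadjusted p under 0.05) and 2 fell, Rgma (-0.41, adjusted p = 0.00123) and its relative Rgmb (-0.22, adjusted p = 0.0188), and Rgmb lost its call without experiment 2 or 3 (adjusted p up to 0.214). At 12 h, 1 receptor gene was higher than in vehicle and 3 were lower. These included the co-receptors Rgmb (-0.34, adjusted p = 0.000177) and Eng (-0.23, adjusted p = 0.00191), and Eng lost its call without experiment 3 (0.0848). With doxycycline and 12 h of tunicamycin, 2 receptor genes were higher and 4 lower than with doxycycline alone, where 13.4 and 16.6% of all genes were. Of 14 secreted antagonists, only Nog passed at 5 h in each arm. At 12 h against vehicle 1 antagonist was higher and 2 were lower, with the BMP-binding protein Twsg1 at -0.41 (adjusted p = 1.58e-06).

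The binding partners of the ID proteins moved in both directions. Of the 3 E proteins, Tcf4 fell at 5 h without doxycycline (-0.31, adjusted p = 0.000414). Between 5 and 12 h Tcf4 rose and Tcf3 fell in both arms, and with doxycycline the Tcf3 call was lost without experiment 1 or 3. Tcf3 was lower at 12 h than in vehicle (-0.35, adjusted p = 3.33e-05) and lower with doxycycline and 12 h of tunicamycin than with doxycycline alone (-0.45, adjusted p = 1.31e-06). In that last comparison Tcf4 and Tcf12 were higher. They lost their calls in 4 and 3 of 12 alternatives (adjusted p up to 0.111 and 0.242). Of 27 tissue-restricted bHLH factors, 14 of them above the level of silent genes, 0 passed limma's threshold at 5 h in either arm (1 higher and 0 lower at an unadjusted p under 0.05 with doxycycline, 6 and 0 without it). Among 12 genes for bHLH repressors (HES, HEY and the related Bhlhe40 and Bhlhe41), 2 rose and 0 fell at 5 h in each arm (1 lower at an unadjusted p under 0.05). Hes1 rose by 0.97 with doxycycline (adjusted p = 1.25e-08) and by 0.68 without it (adjusted p = 1.97e-06), and Bhlhe40 rose by 0.71 with doxycycline (adjusted p = 8.52e-05) and by 0.60 without it (adjusted p = 0.000782). Without doxycycline, Bhlhe40 lost its call when experiment 1 was left out (0.0535). Both fell between 5 and 12 h without doxycycline, Bhlhe40 by 1.11 (adjusted p = 8.04e-08) and Hes1 by 0.54 (adjusted p = 2.6e-06). Hey2 rose late, by 2.69 at 12 h in the doxycycline arm (adjusted p = 7.75e-14) and by 2.64 against vehicle (adjusted p = 1.05e-13). Of the 11 partners outside the bHLH family, 1 rose and 2 fell at 5 h without doxycycline. The retinoblastoma gene Rb1 fell (-0.27, adjusted p = 0.00288), and lost its call without experiment 2 (0.0815) or 3 (0.0794). At 12 h against vehicle, where 11.9% of all genes were higher and 15.8% lower, 3 of the 11 were higher and 3 lower. Among them were the ETS family genes Elk3 (-0.78, adjusted p = 1.01e-08), Ets2 (0.54, adjusted p = 3.32e-05) and Elk1 (0.41, adjusted p = 1.38e-05).

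Of 6 cyclin-dependent kinase (CDK) inhibitor genes, the family through which ID proteins are known to act on the cell cycle, 2 fell and 0 rose at 5 h in each arm (0 higher at an unadjusted p under 0.05). Without doxycycline they were Cdkn2d (-0.29, adjusted p = 0.00448) and Cdkn2c (-0.21, adjusted p = 0.0224), and at 12 h against vehicle they were lower by 0.45 (adjusted p = 7.42e-06) and 0.54 (adjusted p = 2.91e-07). At 5 h without doxycycline Cdkn2d lost its call without experiment 1 (0.1). Cdkn2c lost it there without any 1 experiment (up to 0.215) and with only the compared groups fitted (0.0501). With doxycycline at 5 h both lost their calls without experiment 1 or 2 (adjusted p up to 0.259 for Cdkn2d and 0.1 for Cdkn2c). Cdkn1b, which encodes p27, was higher at 12 h than in vehicle by 0.27 (adjusted p = 3.79e-05). With doxycycline, 0 of the 6 were called higher at 12 h than with doxycycline alone (1 at an unadjusted p under 0.05). Of 5 genes of ID protein turnover, 0 passed limma's threshold at 5 h without doxycycline (0 higher and 3 lower at an unadjusted p under 0.05). Fzr1, an activator of the ubiquitin ligase that targets ID2, was lower at 12 h than in vehicle (-0.30, adjusted p = 0.00156). Usp1, the deubiquitinase known to stabilise ID proteins, rose between 5 and 12 h (0.22, adjusted p = 0.00489) and lost its call without experiment 1 (0.0733) or 3 (0.0738).

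Of 6 genes reported to regulate Id transcription, 3 rose at 5 h with doxycycline and 2 without it, and 0 fell in either arm (0 lower at an unadjusted p under 0.05). Atf3, known to repress ID1 in human epithelial cells, rose by 0.66 at 5 h without doxycycline (adjusted p = 4.16e-05) and by 1.71 at 12 h against vehicle (adjusted p = 1.27e-11). Myc, known to activate Id2, rose by 0.59 at 5 h with doxycycline (adjusted p = 5.25e-06) and by 0.37 without it (adjusted p = 0.000991). Between 5 and 12 h Myc fell by 0.92 with doxycycline (adjusted p = 2.47e-09) and by 0.58 without it (adjusted p = 1.06e-06). Egr1, an early-response factor known to act on Id1, rose by 0.73 at 5 h in the doxycycline arm (adjusted p = 0.00425) and lost its call without experiment 1 (0.0906) or 3 (0.0569).

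Under LIP induction 18 of the 126 pathway genes were called at 0 h (10 higher and 8 lower). At 5 h 22 were called (11 and 11), and at 12 h 22 (12 and 10). Of all genes, 4.89, 6.76 and 6.95% were called higher at 0, 5 and 12 h, and 5.82, 5.21 and 7.77% lower. These 3 comparisons share no arrays but come from the same 3 experiments, so a call at all 3 times is no independent support. Myc was lower under doxycycline at 0, 5 and 12 h, by 0.93 (adjusted p = 3.39e-08), 0.71 (adjusted p = 5.06e-07) and 1.04 (adjusted p = 1.78e-09). Ets1 was lower by 0.64, 0.58 and 0.79 (adjusted p = 3.39e-08, 7.23e-08 and 5.78e-10). The bHLH repressor Bhlhe41 was lower by 0.85, 1.07 and 1.34 (adjusted p = 0.000251, 1.31e-05 and 5.92e-07). Higher at all 3 times were Hes1, at 0.38, 0.67 and 0.67 (adjusted p = 0.00065, 9.75e-07 and 5.66e-07), and Atoh8, at 0.57, 0.54 and 0.53 (adjusted p = 6.64e-05, 6.25e-05 and 5.04e-05). These 5 genes kept their call at each time when any 1 experiment was left out.

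Further genes were called at all 3 times but lost a call at some time when 1 experiment was left out. Tcf4 was higher by 0.19, 0.36 and 0.42 and lost its 0 h call without any 1 experiment (adjusted p up to 0.207). Rb1 was higher by 0.28, 0.32 and 0.22 and lost its 12 h call without experiment 1 (0.203) or 2 (0.0619) and with only the compared groups fitted (0.0602). Rgma was higher by 0.39, 0.42 and 0.37 and lost its 0 h call without experiment 1 (0.0526). Bambi was higher by 0.20, 0.34 and 0.24 and lost its calls at 0 h (up to 0.283) and 12 h (up to 0.125) without experiment 2 or 3. Ets2 and Cer1 were lower and Twsg1 higher at all 3 times, and each lost a call at 1 or more times without 1 experiment.

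By list, the doxycycline calls at 0, 5 and 12 h are given as counts, to be read against the shares of all genes called higher (4.89, 6.76 and 6.95%) and lower (5.82, 5.21 and 7.77%). Of 13 BMP-SMAD targets 3, 3 and 2 were higher and 0, 1 and 1 lower, and of 11 SMAD list genes 1, 2 and 1 were higher and 2, 1 and 1 lower. The one target that was lower was Smad6, at -0.23 (adjusted p = 0.0131) at 5 h and -0.24 (adjusted p = 0.00805) at 12 h, and both calls were lost without experiment 1 or 3 (adjusted p up to 0.235), the 12 h call also without experiment 2 (0.0601) and the 5 h call also with only the compared groups fitted (0.0502). Of 11 receptors 1, 2 and 4 were higher and 0, 0 and 1 lower, of 14 ligands 1, 0 and 0 were higher and 0, 1 and 0 lower, and of 14 antagonists 1 was higher (Twsg1) and 1 lower (Cer1) each time. Of 12 HES, HEY and related repressor genes 1 was higher each time and 2, 1 and 2 were lower. Of 11 non-bHLH partners 2 were higher each time and 2, 4 and 3 lower. The 3 E proteins had 1 higher each time (Tcf4) and 0 lower (0 at an unadjusted p under 0.05). Of 6 regulators of Id transcription 0, 0 and 1 were higher and 1, 2 and 2 lower. Of 27 tissue-restricted bHLH factors 1 passed, Tal1 at 5 h (-0.22, adjusted p = 0.0394), and its call was lost in 7 of 12 alternatives (adjusted p up to 0.338). None of the 6 CDK inhibitors (2, 1 and 0 higher and 0 lower at an unadjusted p under 0.05) and none of the 5 turnover genes (0 higher, and 0, 0 and 1 lower, at an unadjusted p under 0.05) passed limma's threshold at any of the 3 times.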

How the data were processed

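Per the labels' protocols, the Ambion WT Expression Kit gave cDNA from total RNA and the Affymetrix WT Terminal Labeling Kit gave biotin-labelled fragments for 18 one-colour arrays. The deposited table holds the authors' log2 intensities of 35557 probe sets, made with RMA and Partek per the submitters' processing notes. Versions and the genome build are not given in the sources used here. RMA understates fold changes of dim probe sets. The deposited values were used unchanged. Of the probe sets, 21789 have 1 gene symbol in the platform annotation, 1621 several and 12147 none; the brightest single-symbol probe set of each gene was kept, which left 19938 genes (999 genes had several).

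Groups came from the sample titles. limma 3.58.1 (R 4.3.3) was fitted to the 6 group means over 18 arrays (12 residual degrees of freedom), with Benjamini-Hochberg adjustment in each of 11 comparisons and an adjusted p threshold of 0.05. On simulated data for tunicamycin 5 h against vehicle with 200 of 19938 genes changed, the fit recovered 61% of changes of 0.3 and 96% of changes of 0.6 on the log2 scale. The Id genes, the 12 pathway lists and the marker lists were chosen with earlier results of these data known, so list counts are no independent support. Named were the Id genes, Cebpb, Ddit3 and Hspa5, and up to 4 called genes of each list with the largest change per comparison. The 5 genes most like each Id gene were named too, leaving out Id genes, dim, predicted or clone-named genes, small RNAs and histones. A list gene named in 1 comparison may be given in others, and Smad1, Smad4, Smad5 and Gata2 were added after their values were seen.

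The replicate numbers pair arrays because the labels and the series design give them as independent experiments. The deviations of same-numbered arrays from their group means had a median r of 0.04 over 45 pairs (-0.50 to 0.50), with 14 over 0.1. For arrays of different experiments the median was -0.01 over 90 pairs (-0.50 to 0.53), with 15 over 0.1. Alternatives were the experiment as a block, fitting only the groups compared, equal array medians, repeated quantile normalization, leaving out dim genes, a variance trend, array weights, averaging the probe sets of each gene and leaving out each experiment. Leaving out the tunicamycin arrays of experiment 2 at 5 h and experiment 3 at 12 h was added after seeing the data. Promoter windows came from a RefSeq table of GRCm38.p6.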

Additional observations from a re-analysis of the deposited data

Results flagged for a closer look

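The effect of doxycycline on Atf3 differed between 12 h of tunicamycin and no tunicamycin by -0.82 on the log2 scale (limma interaction, adjusted p = 0.000535), with the same sign in all 3 experiments. Under doxycycline Atf3 was lower by 0.87 at 12 h of tunicamycin (adjusted p = 3.8e-07). The interaction lost its call without experiment 3 (adjusted p = 0.0732). It was the 1 pathway gene of 126 with a called interaction.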

How the results depend on the processing

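Between settings the Id1, Id2 and Id3 differences moved by less than the replicate spread, except where an experiment was left out: Id1 and Id3 at 5 h against 0 h under doxycycline (1.52 to 1.69 and 1.41 to 1.61), Id3 at 12 h against vehicle (0.81 to 0.96), and the Id1 interaction at 12 h (-0.025 to 0.169), whose sign turned without experiment 2. For Id4, array weights gave 0.011 for doxycycline at 5 h, 0.013 at 5 h against vehicle, 0.120 at 12 h against 5 h and -0.078 for the 5 h interaction; leaving out an experiment gave 0.064 to 0.200 at 12 h against vehicle, -0.072 to 0.120 at 12 h against 5 h and -0.195 to -0.042 for the 12 h interaction. The number of BMP-SMAD targets called higher at 5 h was 5 to 7 over 12 alternatives in each arm (6 and 7 in the reported fit). With the experiment as a replicate block all 11 counts of called genes stayed within 1.5 times (pathway genes with a 12 h interaction went to 2, against 1), and 2 of 248 named results lost their call: Cdkn2d at 12 h against 5 h (0.0603) and Nog in the doxycycline arm (0.0538). Without the 2 arrays of large spread all counts stayed within 1.5 times, and 17 named results lost their call. Of the 248, 236 passed the threshold as reported; 143 of these passed in every alternative, 49 lost the call only when an experiment was left out, 44 in another alternative, and 0 changed sign. Of the 12 that did not pass, 3 changed sign in an alternative, each near 0 as reported: Hspa5 at 5 h against vehicle and for doxycycline at 12 h, and the Cebpb interaction at 5 h.

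Leaving out 1 experiment gave 652 to 1509 called genes for doxycycline at 0 h (2135 with all), 1012 to 1712 at 5 h (2386) and 1454 to 2546 at 12 h (2936). It gave 419 to 1036 for 5 h against vehicle (1798), 3617 to 5359 for 12 h against vehicle (5516), 3283 to 4452 for 12 h against 5 h (4983), 941 to 1793 for 5 h under doxycycline (2413), 3333 to 4721 for 12 h against 5 h under doxycycline (5246), and 0 to 3 and 39 to 380 for the interactions at 5 h (6) and 12 h (367). Pathway genes were 8 to 13, 9 to 19 and 13 to 16 for doxycycline at 0, 5 and 12 h, 12 to 14 and 18 to 32 for 5 and 12 h against vehicle, 16 to 17 and 25 to 35 for the same under doxycycline, and 0 to 1 for the 12 h interaction. Fewer arrays enter those fits. Array weights gave 3631, 3605, 4381, 119 and 777 genes for doxycycline at 0 and 5 h, 5 h against vehicle and the 2 interactions, and 29, 40, 3 and 2 pathway genes for doxycycline at 0 h, 5 h against vehicle and the 2 interactions. Fitting only the groups compared gave 1413 for doxycycline at 5 h, 1054 for 5 h against vehicle, 2 for the 5 h interaction and 2 pathway genes at the 12 h interaction. A variance trend gave 27 and 567 for the interactions and 3 pathway genes at 12 h, and repeated quantile normalization and leaving out dim genes gave 2 there. The cause of these shifts was not tested. With equal array medians the share called higher was 68.0% (56.5% as reported) for doxycycline at 5 h and 57.5% (47.2%) at 12 h. At 0 h the majority turned too: 974 genes higher and 1161 lower as reported, 1043 and 873 with equal array medians, and 1245 and 1083 with repeated quantile normalization. Among pathway genes it was 61.9% (50%) for doxycycline at 5 h and 27.6% (41.9%) for 12 h against vehicle.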
